A study of Mus musculus with 14 samples.

Results

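Integrins are the transmembrane receptors by which cells hold on to the extracellular matrix and to each other, and each one is a heterodimer of an alpha and a beta subunit. The group described here is 10 subunit genes expressed by endothelial cells, Itga1, Itga4, Itga5, Itga6, Itga8, Itga9, Itgav, Itgb1, Itgb3 and Itgb5, which were picked by name from a gene table of 54524 entries. All 10 passed the filter on low counts and were among the 26626 genes tested.

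The RNA came from liver sinusoidal endothelial cells (LSECs), the fenestrated cells that line the liver's capillaries, taken from male Balb/c mice, which were 10 to 12 weeks old by the labels and somewhat older by the published methods. Sorting kept cells with CD32, an Fc receptor, on their surface and dropped those with F4/80, a macrophage antigen, with ultraviolet autofluorescence or with propidium iodide, and the methods also name CD45 among the antigens gated out. In all, 4 groups were compared, namely 4 healthy mice that received no injection, and mice killed 1 day (n = 2), 3 days (n = 4) or 7 days (n = 4) after a single intraperitoneal injection of 0.5 µL carbon tetrachloride (CCl4) per gram of body weight in mineral oil. CCl4 is converted by pericentral hepatocytes into a radical that kills them, and the liver then repairs itself. Because the healthy mice received no oil, the effects of CCl4 and of its vehicle cannot be told apart.

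Each library held between 46401496 and 103912264 counts. LSEC markers were abundant everywhere, with a summed level of 8 markers of 15663 to 19038 counts per 1000000 (CPM) in the healthy mice and 9306 to 14161 CPM in the injured ones. Fcgr2b, the gene of the sorting antigen CD32b, was at 2443 to 3397 CPM in healthy mice. Its levels were 1585 and 1798 CPM at day 1, 1392 to 1780 CPM at day 3 and 1380 to 2555 CPM at day 7. The authors describe CD32b in liver sections as temporarily lost on days 1 and 3. Whether the sort kept a different part of the LSECs in injured livers was not tested. Genes of other cells were present too, and the day 3 mice did not look alike. Replicates 1 and 2 of that group had 34678 and 34768 genes detected and summed levels of monocyte and neutrophil markers of 12320 and 7558 CPM, whereas replicates 3 and 4 had 28203 and 22986 genes detected and marker sums of 1440 and 1332 CPM. Healthy replicate 4 held 5563 CPM of hepatocyte markers against 135 to 262 CPM in the other healthy mice. In sorted bulk samples like these, fewer cells of a type and less RNA per cell cannot be told apart.

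The beta subunit largely sets which signals an integrin sends to the cytoskeleton, and the alpha subunit largely sets what it binds. The product of Itgb1 pairs with most alpha subunits, among them the collagen receptor made with Itga1, the laminin receptor made with Itga6, the fibronectin receptor made with Itga5, the receptor for nephronectin and other RGD-containing proteins made with Itga8, and the receptors for VCAM-1, osteopontin or tenascin made with Itga4 and Itga9. The products of Itgb3 and Itgb5 pair with that of Itgav into RGD-binding receptors for vitronectin and other matrix proteins, and that of Itgb3 also pairs with the platelet subunit Itga2b.

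On GRCm38 the beta genes lie at chr8:128685654-128733200 on the forward strand (Itgb1), chr11:104608000-104670476 on the forward strand (Itgb3) and chr16:33829665-33949338 on the forward strand (Itgb5). A set of 4 alpha genes share chromosome 2, namely Itga8 at chr2:12106632-12301922 on the reverse strand, and Itga6 at chr2:71745616-71858416, Itga4 at chr2:79255426-79333123 and Itgav at chr2:83724397-83806916, all on the forward strand. The others are Itga1 at chr13:114953096-115101964 and Itga5 at chr15:103344286-103366763, both on the reverse strand, and Itga9 at chr9:118606690-118901003 on the forward strand. Exons of Itga1, Itga4, Itga8 and Itgav overlap exons of another annotated gene over 3.68%, 8.04%, 5.05% and 5.90% of their length, so a small part of their counts may belong to that neighbour, while Itgb1, Itgb3 and Itgb5 overlap no other gene.

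RefSeq promoter windows, running from 250 bases before to 50 bases after the start site on GRCm38.p6, were at hand for 8 of the 10 genes, and not for Itga6 and Itgb3. Those of Itgb1 and Itga8 are shown because these genes were called in opposite directions at day 1. Capitals mark matches, on either strand, to the GC box GGGCGG or to GGAATG, the core bound by TEAD factors. The Itgb1 window is chr8:128685404-128685703 on the forward strand and the Itga8 window is chr2:12301895-12302194 on the reverse strand.
Itgb1: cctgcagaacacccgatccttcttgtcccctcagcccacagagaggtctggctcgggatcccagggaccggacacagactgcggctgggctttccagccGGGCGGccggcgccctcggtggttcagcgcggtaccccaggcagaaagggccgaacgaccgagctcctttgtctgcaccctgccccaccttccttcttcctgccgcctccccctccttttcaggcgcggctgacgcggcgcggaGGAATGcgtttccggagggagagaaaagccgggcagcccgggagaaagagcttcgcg
Itga8: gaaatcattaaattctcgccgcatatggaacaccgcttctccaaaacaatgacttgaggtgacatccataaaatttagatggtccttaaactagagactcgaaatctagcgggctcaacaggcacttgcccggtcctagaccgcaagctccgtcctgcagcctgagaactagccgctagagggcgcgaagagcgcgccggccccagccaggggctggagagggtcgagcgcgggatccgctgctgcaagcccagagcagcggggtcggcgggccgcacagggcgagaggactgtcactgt
In the Itgb1 window the GC box began 151 bases before the start site and the TEAD core 7 bases before it, and the matches did not overlap. The Itga8 window held neither, and neither window held the AP-1 motif TGANTCA or the TATA box TATAAA. Of 32851 mouse windows of this length, 35.7% held the GC box, 14.7% the TEAD core, 7.81% the AP-1 motif and 13.6% the TATA box. Among the 8 integrin windows, 5 held the GC box, 1 the TEAD core and 1 the AP-1 motif, and the last belonged to Itga9, whose RefSeq start lies 105002 bases inside the GENCODE gene. A match of letters is a description and not evidence of binding.

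In healthy LSECs the integrin subunits spanned a wide range of levels. Levels were divided by merged exon length so that genes could be compared, and the order depends in part on the length chosen. Itgb1 was then the most abundant at 129 CPM per kilobase, followed by Itga9 at 49.6 and Itga1 at 20.0 CPM per kilobase. Itga8 (15.8 CPM per kilobase) and Itga5 (15.7) came next and overlapped between mice, as did Itga1 and Itga8. Itgb5 (5.40), Itga6 (4.52), Itgb3 (1.57), Itgav (1.56) and Itga4 (0.977 CPM per kilobase) closed the order. Within this lower part Itgb5 overlapped Itga6, Itgb3 overlapped Itgav and Itgav overlapped Itga4, whereas Itga6 exceeded Itgb3 in 4 of 4 mice. Per longest transcript, Itga6 (9.47 CPM per kilobase) instead stood above Itgb5 (5.84), and Itgav (2.38) above Itgb3 (1.60).

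One day after CCl4 this order was rearranged. Per merged exon length, Itgb3 moved from the eighth to the second place (66.4 CPM per kilobase), above Itga9 in both mice. Itga8 moved to the last place (1.16 CPM per kilobase), below Itgav in both mice. By day 7 Itgb1, Itga9 and Itga1 held the first places again, as in healthy mice.

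**Figure D1:**
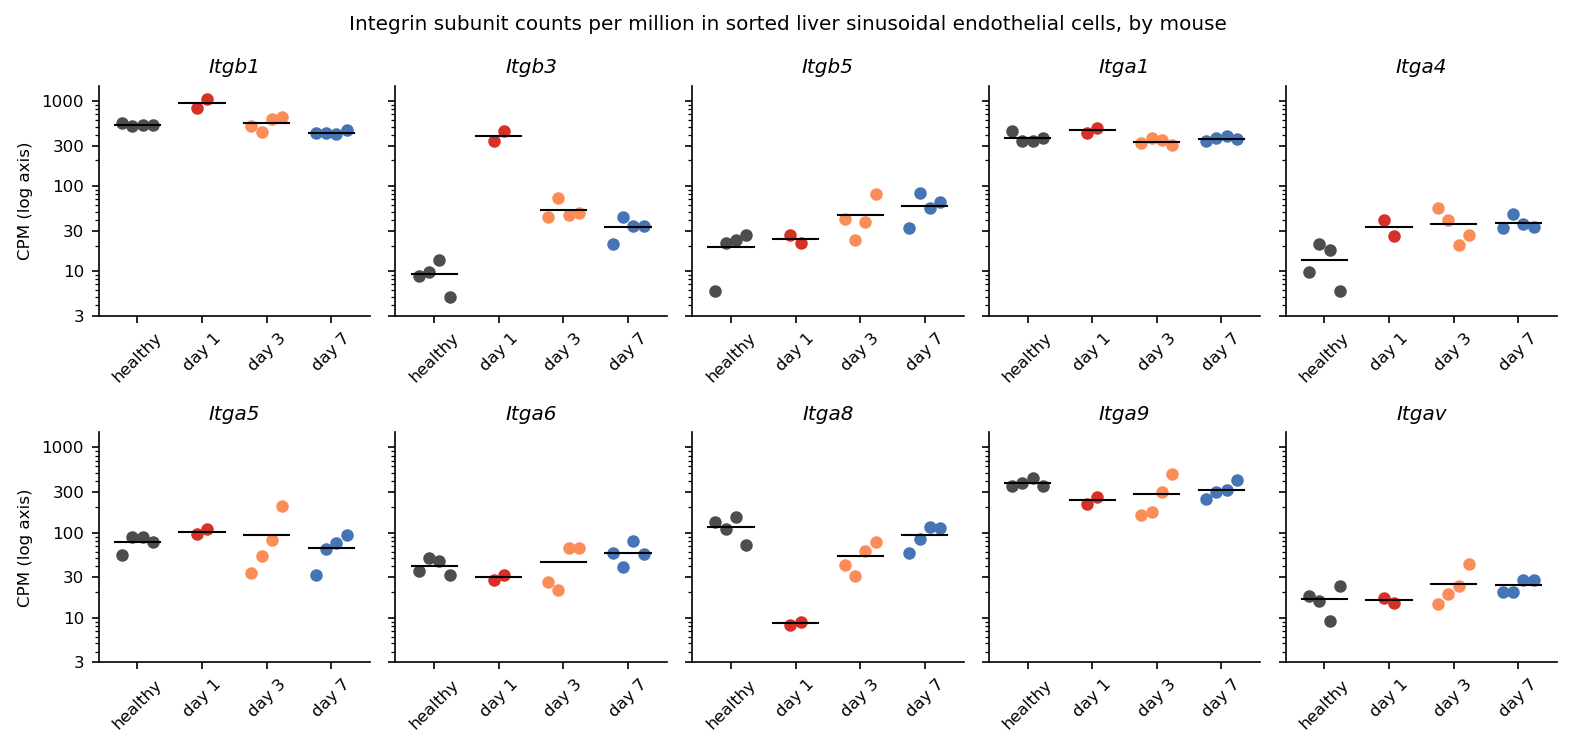
CPM (log axis) of the 10 integrin subunits in the 14 mice, 1 point per mouse in the order of replicate number, with the group mean as a line. Itgb3 lay between 4.92 and 13.6 CPM in healthy mice and at 339 and 445 CPM at day 1, while Itga8 lay between 70.7 and 151 CPM in healthy mice and at 8.23 and 8.94 CPM at day 1.

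Differences between groups were tested with edgeR's quasi-likelihood test, with Benjamini-Hochberg adjustment over all 26626 genes and a threshold of 0.05, and a log2 fold change below is one of CPM. The day 1 comparison asked how these genes stood shortly after the injury. Against healthy mice 2 of the 10 members rose (Itgb3 and Itgb1) and 1 fell (Itga8), where 2.42% of all genes tested were called higher and 1.64% lower. The median log2 fold change of the 10 was 0.31, against -0.03 over all genes tested. At day 3, 2 members rose (Itgb3 and Itga4) and 1 fell (Itga8), where 4.62% of all genes were called higher and 2.58% lower, and the medians were 0.20 for the members and 0.18 for all genes. At day 7, 1 member rose (Itgb3) and none fell, where 2.19% of all genes were called higher and 0.992% lower, and the medians were 0.24 and 0.02. An unadjusted p under 0.05 was reached by 4, 4 and 3 of the 10 members at days 1, 3 and 7, and by 17.9%, 22.2% and 21.1% of all genes tested. These comparisons share the 4 healthy mice, so their values are not independent of each other.

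**Figure D2:**
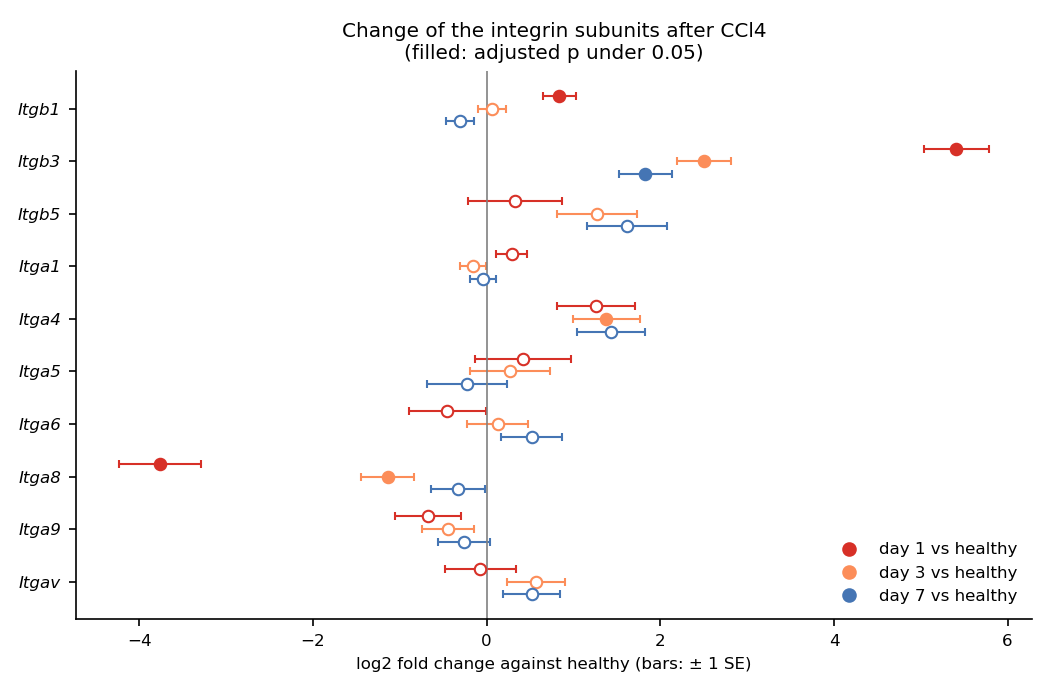
Log2 fold change of each integrin subunit against the 4 healthy mice at day 1, day 3 and day 7 (x axis), with bars of ± 1 standard error, and filled points where the adjusted p was under 0.05. Itgb3 is filled at all 3 times, from 5.41 at day 1 to 1.83 at day 7, Itga8 is filled at day 1 (-3.76) and day 3 (-1.14), Itgb1 is filled at day 1 (0.84) and Itga4 at day 3 (1.38).

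Itgb3 changed most. Its levels were 8.74, 9.72, 13.6 and 4.92 CPM in the 4 healthy mice, and 339 and 445 CPM in the 2 mice at day 1. At day 3 they were 43.5, 71.8, 45.4 and 48.5 CPM, and at day 7 they were 21.0, 43.2, 33.6 and 33.9 CPM. Every injured mouse therefore lay above every healthy mouse, and the day 1 mice lay above all others. The mean rose from 9.25 ± 3.57 CPM in the healthy group (SD, n = 4) to 392 ± 74.4 CPM in the day 1 group (n = 2), and was 52.3 ± 13.1 CPM in the day 3 group and 32.9 ± 9.14 CPM in the day 7 group (n = 4 each). The log2 fold change against healthy was 5.41 ± 0.37 (SE, adjusted p = 1.66e-05) at day 1, or 42.4-fold. It was 2.50 ± 0.31 (adjusted p = 0.00129) at day 3 and 1.83 ± 0.30 (adjusted p = 0.00925) at day 7. These 3 calls held in each alternative analysis and with any single mouse left out.

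Because Itgb3 is a platelet gene as well, platelet markers were read beside it. The summed level of 5 platelet markers was 23.9 to 40.8 CPM in healthy mice, 284 and 102 CPM at day 1, 47.8 to 160 CPM at day 3 and 20.6 to 34.4 CPM at day 7. Of the 5, 3 were called higher at day 1, namely Pf4 (log2 fold change 2.59), Ppbp (4.66) and Itga2b (1.47). Gp9 and Gp1bb were low in both groups and were not called. Gp9 was at 0.550 and 1.06 CPM at day 1 against 0.198 to 1.04 CPM in healthy mice. Gp1bb lay above all healthy mice, at 0.429 and 1.18 CPM against 0.0687 to 0.299 CPM. The 2 day 1 mice were in opposite order for the markers (284 and 102 CPM) and for Itgb3 (339 and 445 CPM). At day 7 the platelet sums lay within or below the healthy range in all 4 mice while Itgb3 was higher than in healthy mice. These sums were in large part Pf4 (10.8 to 24.3 CPM). Of the 5 markers Itga2b was called higher at day 7 (0.99, adjusted p = 0.0323), at 6.72 to 7.89 CPM against 3.26 to 4.19 CPM. The other 4 were not called. The summed markers of monocytes and neutrophils were likewise higher at day 1, at 4071 and 7796 CPM against 506 to 1358 CPM in healthy mice. The day 7 sum of 4106 to 9525 CPM was mostly Lyz2 (3919 to 9304 CPM), a gene of macrophages and monocytes. The neutrophil gene S100a8 was at 736 and 2140 CPM at day 1, against 4.03 to 34.0 CPM in healthy mice. It was at 3.21 to 992 CPM at day 3 and 28.9 to 45.8 CPM at day 7. Csf3r, the receptor for the neutrophil growth factor, was at 81.1 and 121 CPM at day 1, against 2.88 to 10.7 CPM in healthy mice. Its levels were 5.64 to 58.8 CPM at day 3 and 16.2 to 20.2 CPM at day 7. What part such cells had in the Itgb3 counts was not tested.

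Itgb1, the common beta subunit, had levels of 546, 503, 525 and 529 CPM in healthy mice, 836 and 1049 CPM at day 1, 505, 428, 610 and 652 CPM at day 3 and 417, 417, 414 and 452 CPM at day 7. The day 1 mice stood above all others, the day 3 mice straddled the healthy range, and the day 7 mice lay just below it. The rise at day 1 was 0.84 ± 0.19 (SE, log2 fold change, adjusted p = 0.0229), or 1.79-fold. It was lost whichever of the 6 mice was left out (adjusted p 0.0538 to 0.368), with the log2 fold change between 0.64 and 0.96, and also with library size only (0.79, adjusted p = 0.0898) and with no filter on low counts (0.79, 0.0849). At day 3 (0.06 ± 0.16, adjusted p = 0.861) and day 7 (-0.31 ± 0.16, adjusted p = 0.282) Itgb1 was not called, although all 4 day 7 mice were below all 4 healthy mice.

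Itgb5 was at 5.80, 21.2, 23.2 and 26.4 CPM in healthy mice, 26.5 and 21.6 CPM at day 1, 41.4, 23.6, 37.6 and 81.9 CPM at day 3 and 32.0, 82.3, 55.1 and 65.8 CPM at day 7. The day 7 mice were all above the healthy ones, but none of the differences passed the test in the main edgeR fit. The log2 fold change was 0.33 ± 0.54 at day 1, 1.27 ± 0.46 at day 3 (adjusted p = 0.115) and 1.62 ± 0.46 at day 7 (adjusted p = 0.0717). Other fits did call Itgb5 higher at day 7, namely DESeq2 (1.64 ± 0.48, adjusted p = 0.0100) and limma-voom (1.76 ± 0.35, 0.00375). So did edgeR with at least 10 counts in every sample (1.69 ± 0.47, 0.0469), but not edgeR with any single mouse left out.

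Because all 3 beta genes were measured per length, their make-up could be followed. Itgb3 accounted for 1.16% ± 0.444 (SD, n = 4) of the summed CPM per kilobase of the 3 genes in healthy mice and 21.8% ± 0.668 (n = 2) at day 1. Its share was 5.97% ± 2.60 on day 3 and 4.38% ± 1.01 on day 7 (n = 4 each). The share of Itgb5 was 3.98% ± 1.89 in healthy mice and 12.9% ± 3.96 at day 7, and that of Itgb1 was 94.9% ± 1.92 and 82.7% ± 4.94. Per kilobase, the ratio of Itgb3 to Itgav, the subunit it pairs with, was 0.374 to 2.70 in healthy mice, 36.3 and 54.2 at day 1, and 2.06 to 6.90 and 1.89 to 3.87 on days 3 and 7. The ratio of Itgb5 to Itgav lay between 0.966 and 12.3 over all 14 mice, with overlapping ranges in healthy mice and at day 7. Shares and ratios are descriptions and were not tested.

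**Figure D3:**
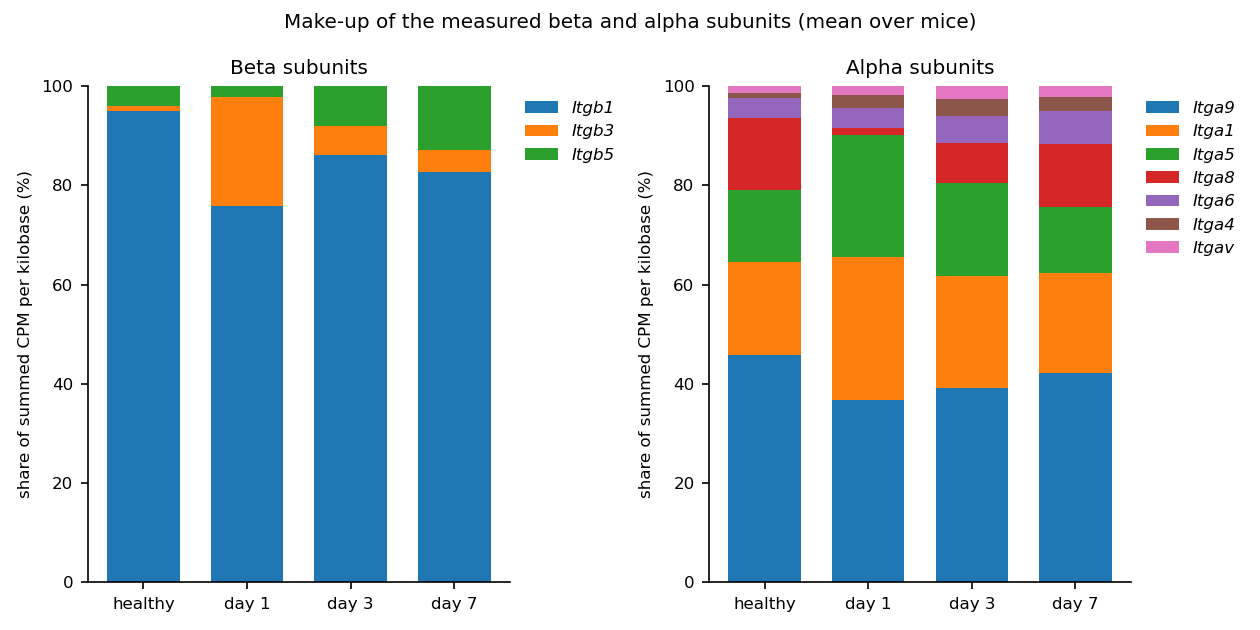
Mean share (%) of each subunit in the summed CPM per kilobase of the 3 beta genes (left) and of the 7 alpha genes (right), as stacked bars for healthy (n = 4), day 1 (n = 2), day 3 (n = 4) and day 7 (n = 4) mice. The Itgb3 segment is 1.16% in healthy mice and 21.8% at day 1, and the Itga8 segment is 14.4% in healthy mice and 1.38% at day 1.

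Among the alpha subunits Itga8 fell most. Its levels were 135, 109, 151 and 70.7 CPM in healthy mice and 8.23 and 8.94 CPM at day 1. They were 41.7, 31.0, 60.3 and 78.6 CPM at day 3, and 57.8, 85.1, 115 and 113 CPM at day 7. The day 1 mice were far below all others, the day 3 mice overlapped only the lowest healthy mouse, and the day 7 mice lay mostly inside the healthy range. Against healthy mice Itga8 fell by 3.76 ± 0.47 on the log2 scale at day 1 (SE, adjusted p = 0.000629), from 116 ± 35.0 CPM (SD, n = 4) to 8.58 ± 0.501 CPM (n = 2), or 13.6-fold. At day 3 it fell by 1.14 ± 0.31 (adjusted p = 0.0445), and at day 7 the log2 fold change of -0.33 ± 0.31 was not called (adjusted p = 0.583). The call at day 1 held in each alternative analysis and with any single mouse left out. The call at day 3 was less firm, since it held without healthy replicate 4 (adjusted p = 0.0331) or day 3 replicate 4 (0.0124) and was lost without any one of the other 6 mice (0.0504 to 0.122). It was also lost with library size only (-1.05, adjusted p = 0.0869) and with the 2 groups alone (-1.20, 0.0862).

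Itga8 is known from stellate cells and other mesenchymal cells too, so their markers were read beside it. The summed level of 9 stellate cell markers was 146 to 229 CPM in healthy mice, 116 and 131 CPM at day 1, 199 to 357 CPM at day 3 and 199 to 664 CPM at day 7. Most of the healthy sum was Ecm1 (122 to 192 CPM), while Des (1.84 to 3.49 CPM), Pdgfrb (1.69 to 2.53 CPM) and Ngfr (at most 0.218 CPM) were low. None of the 9 markers was called by edgeR at day 1, but Reln, Lhx2, Pdgfrb and Ecm1 lay below all healthy mice as Itga8 did. Reln, a matrix protein gene, was at 1.70 and 3.37 CPM at day 1 against 5.82 to 9.42 CPM in healthy mice. Lhx2, a transcription factor gene, was at 0.187 and 0.323 CPM against 0.881 to 2.69 CPM. Pdgfrb was at 1.41 and 1.45 CPM against 1.69 to 2.53 CPM, and Ecm1 at 102 and 115 CPM against 122 to 192 CPM. The other stellate markers overlapped the healthy range. The share of all genes tested that lay below all healthy mice is not given here. Fibroblast markers were also lower in sum, at 99.9 and 123 CPM against 141 to 251 CPM, a sum that was mostly Dcn. None of these 7 markers was called at day 1, and they went both ways. Col1a2, Col3a1, Dcn and Lum lay below all healthy mice. Above all of them lay Acta2 (11.2 and 18.1 CPM against 5.28 to 9.64 CPM) and Tagln (3.97 and 4.23 CPM against 1.34 to 2.20 CPM). The exons of Tagln overlap those of the gene model Gm48529 over 62.4% of their length, so its counts are uncertain. At day 3, when Itga8 was lower than in healthy mice, 4 of the 9 stellate markers were called higher. The part of such cells in the Itga8 counts was not tested.

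Itga4, which leukocytes also carry, was called higher at day 3 only in the main edgeR fit. Its levels were 9.78, 21.1, 17.9 and 5.91 CPM in healthy mice, 39.5 and 26.0 CPM at day 1, 55.6, 40.3, 20.3 and 26.5 CPM at day 3 and 32.4, 46.6, 35.5 and 33.2 CPM at day 7. The day 1 and day 7 mice lay above all healthy mice, and 1 day 3 mouse lay within the healthy range. The log2 fold change was 1.26 ± 0.45 at day 1 (adjusted p = 0.148), 1.38 ± 0.39 at day 3 (adjusted p = 0.0474) and 1.43 ± 0.39 at day 7 (adjusted p = 0.0622), so the call at day 3 and its absence at day 7 rest on nearly equal values. With single mice left out the day 3 call held without healthy replicate 2 (adjusted p = 0.0449), day 3 replicate 3 (0.0443) or day 3 replicate 4 (0.0406), and was lost without any of the other 5 mice (0.0693 to 0.142). It was also lost with no filter on low counts (1.18, adjusted p = 0.107), with the 2 groups alone (1.29, 0.134) and with the replicate block (1.41, 0.0604). At day 7 Itga4 was called higher in 5 of 8 alternatives. These were DESeq2 (1.47, adjusted p = 0.00615), limma-voom (1.26, 0.0104) and, in edgeR, library size only (1.51, 0.0420), at least 10 counts in every sample (1.53, 0.0309) and the 2 groups alone (1.44, 0.0378). With any single mouse left out it was not called at day 7.

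The Itga4 level moved with that of monocyte and neutrophil markers from mouse to mouse. The 2 healthy mice with the lowest Itga4 (5.91 and 9.78 CPM) had the lowest marker sums of all 14 mice (506 and 548 CPM), and the mouse with the highest Itga4 (55.6 CPM) had the highest sum (12320 CPM). The day 3 mice with 20.3 and 26.5 CPM of Itga4 had sums of 1440 and 1332 CPM, close to the healthy mice with 21.1 and 17.9 CPM of Itga4 and sums of 1358 and 1106 CPM. The part of leukocytes in the Itga4 counts was not tested.

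**Figure D4:**
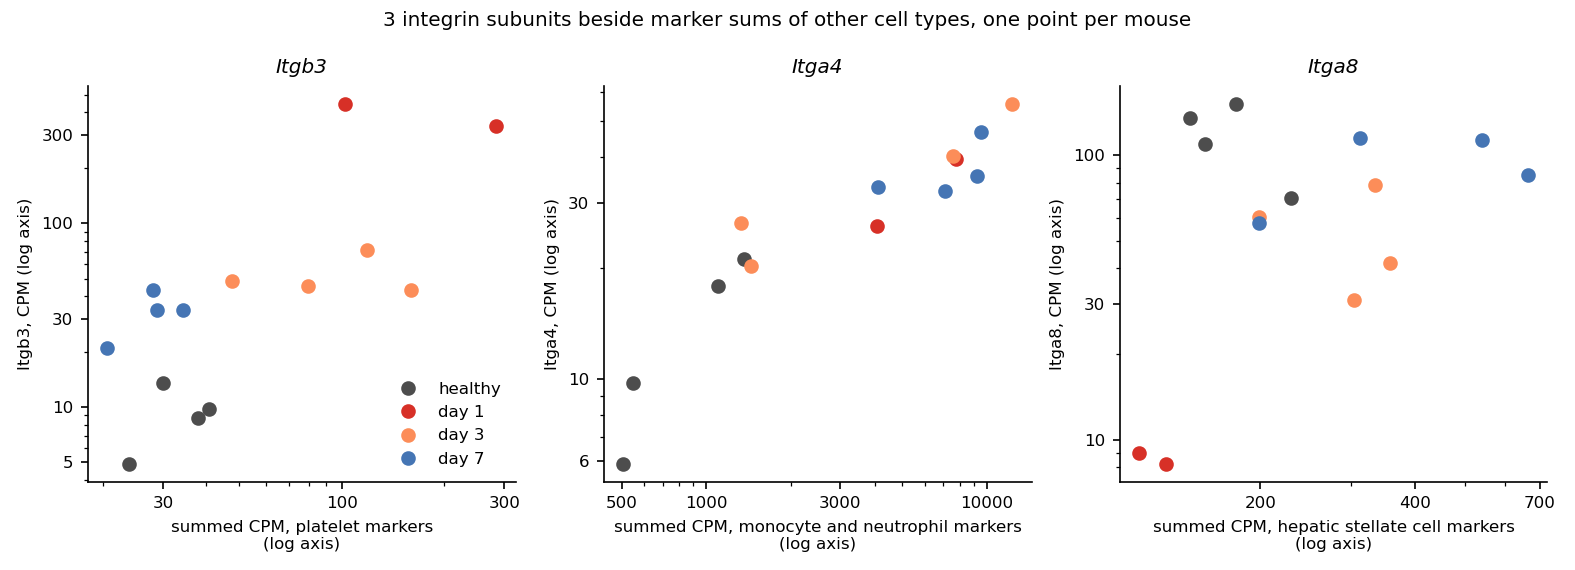
CPM of Itgb3, Itga4 and Itga8 (y axes, log) against the summed CPM of platelet, monocyte and neutrophil, and hepatic stellate cell markers (x axes, log), 1 point per mouse. Itga4 is highest (55.6 CPM) where the marker sum is highest (12320 CPM), whereas the 2 day 1 mice are in opposite order for Itgb3 (339 and 445 CPM) and platelet markers (284 and 102 CPM).

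Itga9 was the most abundant alpha subunit per merged exon length in every group, although per longest transcript Itga1 exceeded it at day 1 (41.4 against 34.2 CPM per kilobase). Its levels were 352, 381, 438 and 355 CPM in healthy mice, 219 and 260 CPM at day 1, 160, 174, 301 and 488 CPM at day 3 and 249, 296, 314 and 413 CPM at day 7. Both day 1 mice were below all healthy mice, but edgeR did not call the log2 fold change of -0.67 ± 0.38 (adjusted p = 0.405), nor those of day 3 (-0.44 ± 0.30, adjusted p = 0.434) and day 7 (-0.26 ± 0.30, adjusted p = 0.666). Other fits did call Itga9 lower, at day 1 limma-voom (-0.70 ± 0.19, adjusted p = 0.0190) and edgeR on the 2 groups alone (-0.71 ± 0.15, 0.0343), and at day 3 limma-voom (-1.09 ± 0.19, 0.00157) and edgeR without day 3 replicate 4 (-0.92 ± 0.25, 0.0315).

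Itga1, the collagen-binding subunit, varied little, with 337 to 448 CPM in healthy mice, 420 and 487 CPM at day 1, 304 to 363 CPM at day 3 and 337 to 387 CPM at day 7. Its log2 fold changes of 0.29 ± 0.18, -0.16 ± 0.15 and -0.04 ± 0.15 were not called.

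Itga5, the fibronectin-binding subunit, was at 54.8, 88.9, 88.5 and 77.0 CPM in healthy mice and at 97.0 and 109 CPM at day 1. The day 3 mice spread from 33.9 over 53.0 and 81.9 to 204 CPM, a wider range than in any other group, and the day 7 mice lay between 32.1 and 92.8 CPM. The log2 fold changes were 0.42 ± 0.55, 0.27 ± 0.46 and -0.22 ± 0.46 at days 1, 3 and 7, and none was called.

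Itga6, the laminin-binding subunit, was at 31.4 to 50.0 CPM in healthy mice, 27.7 and 32.0 CPM at day 1, 26.1, 21.4, 65.1 and 65.9 CPM at day 3 and 39.4 to 80.5 CPM at day 7. Itgav was at 9.20 to 23.9 CPM in healthy mice, 17.0 and 14.9 CPM at day 1, 14.5, 18.9, 23.3 and 42.9 CPM at day 3 and 20.2 to 28.0 CPM at day 7. Neither gene was called at any time in the main edgeR fit, with log2 fold changes of -0.45 ± 0.44, 0.13 ± 0.35 and 0.52 ± 0.35 for Itga6 and of -0.07 ± 0.41, 0.57 ± 0.33 and 0.52 ± 0.33 for Itgav. By limma-voom Itgav was called higher at day 7 (0.79 ± 0.24, adjusted p = 0.0267), and Itga6 from day 3 to day 7 (1.11 ± 0.30, 0.0193). Without day 3 replicates 1 and 2, edgeR called Itga6 higher at day 3 than at day 1 (1.13 ± 0.30, 0.0414).

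The day 3 mice differed among themselves. For 6 of the 10 (Itga5, Itga6, Itga8, Itga9, Itgav and Itgb1) day 3 replicates 3 and 4 were both above replicates 1 and 2, for 1 (Itga4) both were below them, and the remaining 3 (Itga1, Itgb3 and Itgb5) showed neither order. Over all 26626 genes tested, 26.3% had the first order and 36.7% the second. Replicates 1 and 2 are the ones with high monocyte and neutrophil marker sums. Leaving them out had to move these members in the direction of that order, and the log2 fold changes at day 3 were then 0.76 ± 0.41 for Itga4 (adjusted p = 0.254), 0.86 ± 0.40 for Itga5 (adjusted p = 0.186), 0.66 ± 0.25 for Itga6 (0.114), -0.76 ± 0.31 for Itga8 (0.137), 0.02 ± 0.23 for Itga9 (0.962) and 0.95 ± 0.34 for Itgav (0.103). Itgb3 was then the only member called against healthy mice (2.33 ± 0.33, adjusted p = 0.00331).

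The make-up of the 7 alpha genes followed these values. Per kilobase, Itga9 made up 45.9% ± 1.91 (SD, n = 4) of their sum in healthy mice and 36.7% ± 1.14 (n = 2) at day 1, Itga1 18.7% ± 3.47 and 28.8% ± 0.404, and Itga5 14.5% ± 2.74 and 24.7% ± 0.161. The share of Itga8 was 14.4% ± 3.47 in healthy mice, 1.38% ± 0.0441 at day 1, 8.08% ± 1.38 on day 3 and 12.6% ± 1.74 on day 7 (n = 4 each). The summed alpha genes stood to the summed beta genes as 0.797 ± 0.0764 to 1 in healthy mice, 0.280 ± 0.0195 at day 1, 0.561 ± 0.146 at day 3 and 0.775 ± 0.112 at day 7. The range at day 1 (0.266 to 0.294) did not reach that of healthy mice (0.704 to 0.880), and no test was made.

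The comparisons between injured groups asked how the day 1 state gave way to later ones. From day 1 to day 3, 1 member rose (Itga8) and 2 fell (Itgb1 and Itgb3), where 1.57% of all genes tested were called higher and 0.969% lower. Itgb3 fell by 2.91 ± 0.35 on the log2 scale (SE, adjusted p = 0.00195), which held in each alternative and with any mouse left out. Itga8 rose by 2.62 ± 0.44 (adjusted p = 0.00924), from 8.58 ± 0.501 CPM (SD, n = 2) to 52.9 ± 21.0 CPM (n = 4), a call that was lost when day 1 replicate 1 (adjusted p = 0.186) or replicate 2 (0.149) was left out and with the 2 groups alone (0.0688). Itgb1 fell by 0.78 ± 0.19 (adjusted p = 0.0471), which held with day 3 replicate 4 left out (0.0232) and was lost without any of the other 5 mice (0.0588 to 0.453) and in 6 of the alternative analyses (0.0501 to 0.368). From day 3 to day 7 no member was called by edgeR, where 0.413% of all genes were called higher and 1.36% lower. An unadjusted p under 0.05 was reached by 3 members (Itga8, Itgb1 and Itgb3) and by 18.8% of all genes tested, DESeq2 called none and limma-voom with sample weights called 3. Itgb3 was lower at day 7 in all 4 mice (21.0 to 43.2 CPM against 43.5 to 71.8 CPM), with a log2 fold change of -0.67 ± 0.29 (adjusted p = 0.244).

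The other integrin genes were read from a list of 17 subunits, all tested. In it 4 were higher than in healthy mice at day 1, 1 at day 3 and 4 at day 7, and none was lower, with median log2 fold changes of 1.07, 1.22 and 0.97. Over all genes tested 2.42%, 4.62% and 2.19% were called higher at days 1, 3 and 7. The shares called lower were 1.64%, 2.58% and 0.992%, and the medians were -0.03, 0.18 and 0.02. At day 1 the laminin-binding subunit Itga3 rose from 1.99 ± 0.605 CPM (SD, n = 4) to 55.7 ± 0.259 CPM (n = 2), a log2 fold change of 4.80 ± 0.55 (SE, adjusted p = 0.000382), and at day 3 the difference was 1.84 ± 0.46 (adjusted p = 0.0285). Itga3 was the sole subunit of this list called at day 3, and none was called with the replicate block, without healthy replicate 1, 2 or 4, or without day 3 replicate 1 or 2. The leukocyte subunits Itgam (3.00 ± 0.73, adjusted p = 0.0351) and Itgb2 (1.99 ± 0.51, adjusted p = 0.0453) rose at day 1, as did Itga2b (1.47 ± 0.26, adjusted p = 0.00662). At day 7 the leukocyte subunits Itgax (2.93 ± 0.59, adjusted p = 0.0201) and Itgb2 (1.96 ± 0.45, adjusted p = 0.0356) were higher, as were Itga2b (0.99 ± 0.22, adjusted p = 0.0323) and the fibrillar collagen receptor subunit Itga11 (3.50 ± 0.79, adjusted p = 0.0367), which stayed at 0.843 ± 0.604 CPM (SD, n = 4). Itga2b was named after its values were seen. The exons of Itgam overlap those of the gene model Gm49368 over 68.7% of their length, so its counts are uncertain.

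Of 32 integrin ligand genes, all tested, 5 rose and 1 fell at day 1, 16 rose at day 3 and 12 rose at day 7. Their median log2 fold changes were 0.46, 1.40 and 0.83. Over all genes tested 2.42%, 4.62% and 2.19% were called higher and 1.64%, 2.58% and 0.992% lower, with medians of -0.03, 0.18 and 0.02. At day 1 the largest changes among the called ligands were in the matricellular genes Ccn2 (5.03 ± 0.46, SE, adjusted p = 6.21e-05), from 54.2 ± 23.1 CPM (SD, n = 4) to 1768 ± 719 CPM (n = 2), and Thbs1 (4.63 ± 0.62, adjusted p = 0.000931), and in the laminin gene Lama4, which fell by 1.86 ± 0.41 (adjusted p = 0.0202). The other 3 that rose at day 1 were the basement membrane collagens Col4a1 (1.57) and Col4a2 (1.74) and the disintegrin protease Adam15 (1.48), named after their values were seen. Exons of Ccn2 and Adam15 overlap those of a gene on the opposite strand over 23.2% and 20.6% of their length, so part of their counts may belong to it. At day 3 the largest changes among the called ligands were in the fibrillar collagen genes Col1a1 (5.90 ± 1.16, adjusted p = 0.00971) and Col1a2 (4.88 ± 0.91, adjusted p = 0.00764) and in the tenascin gene Tnc (5.73 ± 1.17, adjusted p = 0.0117), a ligand of the receptors made with Itga8 and Itga9. These 3 genes were also called at day 7, with 7.34 ± 1.24 for Col1a1 (adjusted p = 0.00961), 6.37 ± 1.20 for Tnc (0.0148) and 6.14 ± 0.97 for Col1a2 (0.00752). The fibrillar collagens are fibroblast markers too, so this list and the fibroblast markers share genes. The fibroblast sums were 141 to 251 CPM in healthy mice, 786 to 2524 CPM at day 3 and 433 to 7213 CPM at day 7. At day 1, when 5 ligands rose, these sums were lower than in healthy mice, at 99.9 and 123 CPM. Whether LSECs or accompanying mesenchymal cells made these ligands was not tested.

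A list of 33 genes, all tested, held adhesion adaptors, kinases and other proteins that act with integrins, called adaptors for short. Of these, 3 rose at day 1, 3 rose and 1 fell at day 3, and 3 rose at day 7. Their median log2 fold changes were 0.22, -0.06 and -0.07. Over all genes tested 2.42%, 4.62% and 2.19% were called higher and 1.64%, 2.58% and 0.992% lower, with medians of -0.03, 0.18 and 0.02. The adaptors that rose at day 1 were the actin crosslinkers Actn1 (2.68 ± 0.35, SE, adjusted p = 0.000865) and Flna (1.71 ± 0.34, adjusted p = 0.0114) and the hematopoietic kindlin Fermt3 (1.47 ± 0.37, adjusted p = 0.0419). Flna, together with the integrin activator Tln2 and the talin-binding Kank1, rose at day 3 (1.79 ± 0.29, 1.32 ± 0.35 and 1.34 ± 0.29) and at day 7 (1.18 ± 0.29, 1.59 ± 0.35 and 1.28 ± 0.29). The gene of this list that fell at day 3 was the small GTPase gene Rap1a (-0.64 ± 0.15, adjusted p = 0.0227), named after its value was seen.

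**Figure D5:**
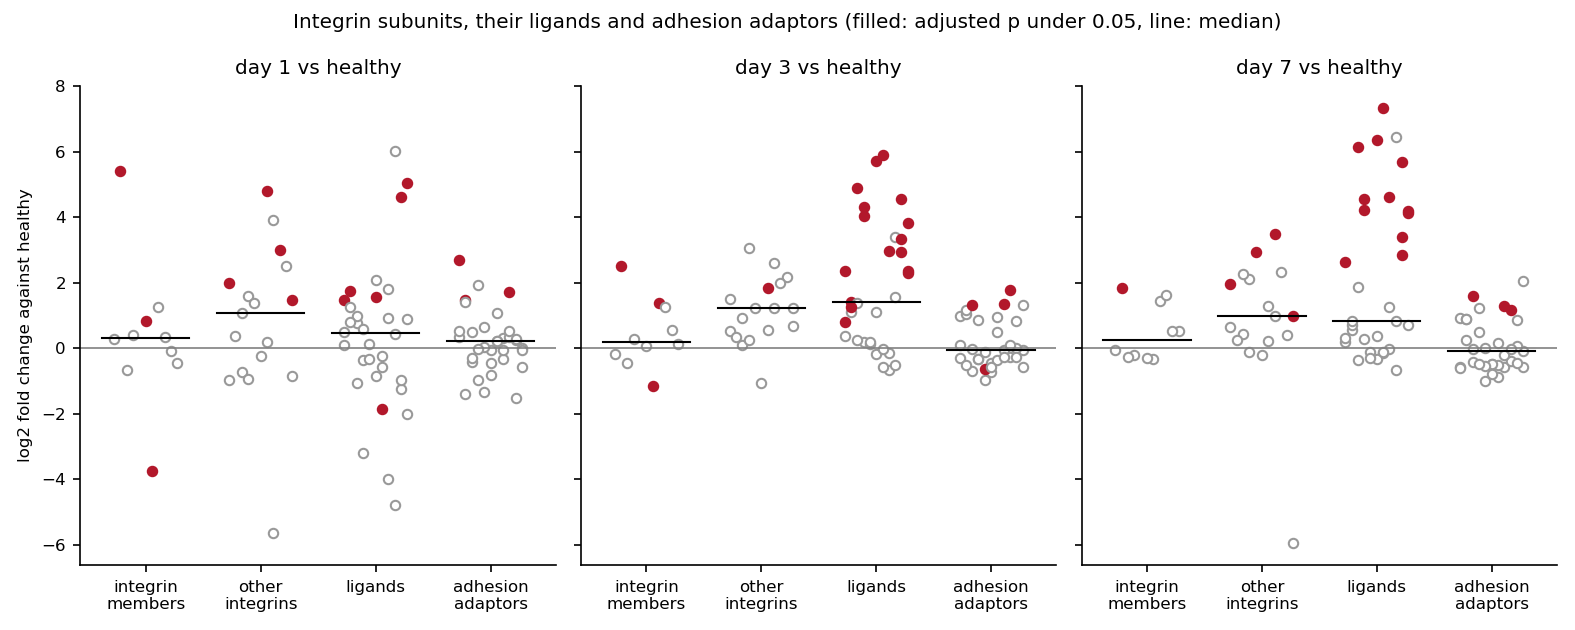
Log2 fold change against healthy mice (y axis) of the 10 integrin members, 17 other integrin subunits, 32 ligands and 33 adhesion adaptors at day 1, day 3 and day 7, 1 point per gene, filled where the adjusted p was under 0.05, with the median as a line. At day 3 16 of the 32 ligands are filled, all above 0, against 3 of the 10 members. Over all genes tested 4.62% were called higher and 2.58% lower at day 3.

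The genes whose pattern was most like that of a called member were found by the mean absolute difference in log2 CPM, after centring each gene, over all 14 mice. For Itgb3 these were Itga3, with a mean difference of 0.426, and Slc16a3, a lactate transporter gene, with 0.504. Slc16a3 had 4.00 ± 1.79 CPM (SD, n = 4) in healthy mice, 75.6 ± 53.3 CPM (n = 2) at day 1, and between 6.31 and 19.2 CPM in the later groups. For Itga8 they were Nr1d1, a circadian repressor of transcription (0.324), and Thra, a thyroid hormone receptor gene (0.328), which share 263 exon bases on opposite strands and so may share counts. Nr1d1 had 63.1 ± 17.8 CPM in healthy mice, 5.65 ± 1.46 CPM at day 1, 33.4 ± 20.6 CPM at day 3 and 55.2 ± 10.6 CPM at day 7. For Itga4 they were Dock10, an exchange factor gene (0.145), and the kinase gene Btk (0.175), both known from leukocytes, with 20.4 ± 10.9 and 4.97 ± 1.80 CPM in healthy mice and 52.4 ± 9.72 and 11.1 ± 1.89 CPM at day 7.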

How the data were processed

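Gene counts were analysed for 14 libraries of sorted LSECs (4 healthy mice and 2, 4 and 4 mice at 1, 3 and 7 days after CCl4), grouped by their labels. The authors prepared libraries with a SMART-seq kit, aligned reads with STAR to GRCm38 and obtained counts with StringTie per the labels and methods (versions are not given in the sources used here), and deposited raw gene counts. The kit does not mark strand, so reads of overlapping genes on opposite strands cannot be told apart. The sources name the remaining day 1 libraries as left out for low RNA quality, and those are not analysed here. No column of the table was left unused.

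Counts were fitted with edgeR 4.0.16 (R 4.3.3): filterByExpr (minimum count 10, minimum total 15), TMM scaling, 1 model of 4 group means over all 14 samples, the quasi-likelihood test and Benjamini-Hochberg adjustment over 26626 genes, with a threshold of 0.05. CPM are TMM-scaled. CPM per kilobase divide by the merged exon length of GENCODE vM21, in which 54495 of the 54524 genes were found. Library totals of 46401496 to 103912264 counts mean that spread between mice, and not counting, limits precision. The labels do not say that replicates share a litter or day, and p-values measure the spread between these mice. The scripts were tested on simulated data.

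Alternatives were DESeq2 1.42.0, limma-voom (limma 3.58.1) with sample weights, RLE or library-size scaling, no filter or at least 10 counts in every sample, only the 2 groups compared, a replicate block, and each mouse left out in turn. Leaving out day 3 replicates 1 and 2 was added after seeing the data. For CPM per kilobase, the longest transcript and other scalings were tried. The members and gene lists were chosen with earlier results of these data known. All 10 members are named, as are the 3 called genes of each list with the largest absolute log2 fold change in each comparison with healthy mice, the marker genes that define other cell types, and the 2 genes nearest in pattern to each member called against healthy mice at day 3 or 7. Sequences are from RefSeq (GRCm38.p6).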

Additional observations from a re-analysis of the deposited data

Results flagged for a closer look

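In 2 of the 30 groups of 4 mice checked (10 members in the healthy, day 3 and day 7 groups), 1 mouse lay apart from the other 3 on the log2 CPM scale by more than Dixon's test allows, where chance gives about 1 in 20. Itgb1 in day 7 replicate 4 was at 8.82, against 8.69 to 8.70 in the other day 7 mice, a small distance that stands out because the others were so close. Itgb5 in healthy replicate 1 was at 2.54, against 4.41 to 4.72 in the other healthy mice, and this low value belongs to the group with which the Itgb5 differences of every injured group were computed.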

How the results depend on the processing

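Itgb3 kept its calls in the 3 comparisons with healthy mice and from day 1 to day 3 under every alternative and with any mouse left out, and Itga8 did so at day 1. The number of members called moved most at day 7 against healthy, from 1 to 3 with DESeq2, 4 with limma-voom, 2 with library size only, 3 with at least 10 counts in every sample and 2 with only the 2 groups compared. At day 3 against healthy it went from 3 to 1 with only the 2 groups compared or with day 3 replicates 1 and 2 left out, and from 3 to 1 to 4 with single mice left out, the value being 1 without healthy replicate 1 or 3 or day 3 replicate 1 or 2. From day 1 to day 3 it went from 3 to 1 with only the 2 groups compared and ranged from 1 to 3 with single mice left out, being 1 without either day 1 mouse. From day 3 to day 7 it went from 0 to 3 with limma-voom and from 0 to 1 with single mice left out (1 without day 3 replicate 4). The cause was not tested. Where 1 day 1 mouse was left, it is assumed to vary like the other groups.

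Changes of sign were limited to uncalled members. With limma-voom the log2 fold change was 0.15 for Itgav at day 1, -0.72 for Itga5, -0.72 for Itga6 and -0.13 for Itgb1 at day 3, 0.03 for Itga1 at day 7, -0.16 for Itga6 and -0.38 for Itga9 from day 1 to day 3, and -0.20 for Itga4, 0.55 for Itga5 and 0.47 for Itgav from day 3 to day 7. With no filter it was -0.05 for Itga6 and -0.12 for Itgb1 at day 3 and -0.01 for Itga4 from day 1 to day 3. For Itga1 at day 7 it was 0.00 with DESeq2 and with RLE, 0.04 with library size only and 0.06 with at least 10 counts in every sample, a filter that gave 0.05 for Itgav from day 3 to day 7. For Itga5 from day 1 to day 3 it was 0.03 with library size only, and for Itgb1 at day 3 it was -0.01 with the 2 groups alone. With day 3 replicates 1 and 2 left out it was 0.02 for Itga9 at day 3, -0.49 for Itga4 and 0.47 for Itga5 from day 1 to day 3, and -0.13 for Itga6 and -0.27 for Itga9 from day 3 to day 7. With single mice left out the sign also changed within these ranges: -0.27 to 0.13 for Itgav at day 1, -0.53 to 0.50 for Itga5, -0.22 to 0.38 for Itga6 and -0.13 to 0.19 for Itgb1 at day 3, -0.08 to 0.06 for Itga1 at day 7, -0.26 to 0.36 for Itga4, -0.92 to 0.11 for Itga5 and -0.23 to 0.43 for Itga9 from day 1 to day 3, and -0.08 to 0.45 for Itga4, -0.72 to 0.29 for Itga5 and -0.17 to 0.42 for Itgav from day 3 to day 7.

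Same-numbered mice of 2 groups did not deviate together (correlations of -0.232 to 0.096), so the replicate numbers do not pair the mice. With the replicate block, members called were 3, 2, 1, 2 and 0 in the 5 comparisons, and the log2 fold change was 0.17 for Itgav at day 1, -0.03 for Itga5 and -0.01 for Itga6 at day 3, -0.17 for Itga9 from day 1 to day 3 and 0.04 for Itgav from day 3 to day 7.

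The counts of the lists moved too. Called ligands numbered 5 to 11, 15 to 20 and 10 to 17 at days 1, 3 and 7 over the alternatives, other subunits 2 to 5, 0 to 6 and 1 to 7, and adaptors 2 to 10, 2 to 16 and 1 to 15. With single mice left out, called ligands numbered 2 to 5, 12 to 17 and 7 to 14, other subunits 1 to 4, 0 to 5 and 0 to 6, and adaptors 1 to 3, 1 to 9 and 0 to 5. Over all genes, library size alone raised the share of higher calls from 64.2% to 75.1% at day 3 and from 68.8% to 86.8% at day 7, and dropping the filter shifted the median by -0.18 at day 3 and -0.13 at day 7.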
